A study of Mus musculus with 2 samples.

Results

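The 67 replication-dependent histone genes of the mouse were examined in liver DNA of Uhrf1 mutant mice. They are the protein-coding genes of the mm9 GENCODE annotation with names from Hist1h to Hist4h, of 22,380 protein-coding genes in all. Of these, 64 are somatic and 3 are known as testis-specific, namely Hist1h1t, Hist1h2ba and Hist1h2aa. Each locus ran from 1 kb upstream of the gene to 1 kb past its end. CpGs that both libraries covered with 5 or more reads were used, and are called shared CpGs. Of the 67 loci, 53 held a shared CpG, and together they held 1,382 of the 2,654,195 shared CpGs.

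The samples were reduced representation bisulfite sequencing (RRBS) libraries, in which MspI cuts DNA at CCGG and unconverted cytosines are read as methylated. The WT library held liver DNA of 3 wild type male mice, C57BL/6 per the labels, and the KI library that of 3 males homozygous for the Uhrf1 YP187/188AA knock-in, all 3 months old. The mutation changes the pocket with which Uhrf1 binds H3K9me2/3, and is present in the germline and so in every cell. It was made in ES cells of 129 origin, and chimeric mice from these were crossed to C57BL/6. The paper states that the animals were later purified to a C57BL/C background, and describes the pooled mice as 3 pairs of littermates. DNA was pooled within each genotype, so that each genotype is 1 library and no spread between animals can be given. Tests on reads therefore compare the 2 libraries. Intervals and floors cover counting error only. PCR copies, and reads that cover more than 1 CpG, are treated as independent although they are not, so p-values are too small.

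Most histone protein is made in S phase, when DNA is copied, from clustered genes that mostly lack introns and whose RNAs end in a stem-loop instead of a poly(A) tail. The linker histone H1 binds between nucleosomes, and H2A, H2B, H3 and H4 form the core on which DNA is wound. During sperm formation somatic histones are partly exchanged for testis forms, of which Hist1h2ba encodes an H2B, Hist1h2aa an H2A and Hist1h1t a linker histone, and later for transition proteins and protamines. Uhrf1 recognises hemimethylated CpGs after replication and brings Dnmt1, the enzyme that copies methylation to the new strand.

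Hist1h2ba and an identical stretch of its somatic copy Hist1h2bj differed in methylation. Hist1h2ba and Hist1h2aa stand head to head. The sequences shown first are the measured coding stretches of the pair and the same stretch of somatic H2B genes, written in the direction of the gene with CpGs in capitals. All were read from mm9. The Hist1h2ba stretch is chr13:24025744-24025810 on the minus strand, that of Hist1h2bj chr13:22135311-22135377 on the plus strand, and that of Hist1h2bf chr13:23665781-23665847 on the minus strand. The Hist1h2aa stretch is chr13:24026426-24026546 on the plus strand.
Hist1h2ba: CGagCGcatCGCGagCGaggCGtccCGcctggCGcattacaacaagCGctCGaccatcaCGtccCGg
Hist1h2bj: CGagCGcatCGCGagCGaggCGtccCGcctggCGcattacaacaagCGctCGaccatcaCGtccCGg
Hist1h2bf: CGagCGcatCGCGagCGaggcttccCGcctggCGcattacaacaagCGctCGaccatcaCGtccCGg
Hist1h2aa: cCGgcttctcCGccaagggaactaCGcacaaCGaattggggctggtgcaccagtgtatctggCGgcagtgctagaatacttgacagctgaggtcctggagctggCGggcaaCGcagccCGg

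The 67 bases of Hist1h2ba hold 12 CpGs and recur base for base in 6 of the 17 other H2B genes, namely Hist1h2bp, Hist1h2bq, Hist1h2br, Hist1h2bk, Hist1h2bj and Hist1h2bb. In Hist1h2ba both strands were measured, and the 24 cytosines averaged 88.0% in WT and 82.5% in KI. Of the 6 identical somatic stretches only that of Hist1h2bj was measured, on 1 strand. There, over 12 CpGs, 0 of 72 WT reads and 0 of 251 KI reads were methylated, which allows shares of up to 4.17% and 1.20% if each count is taken as independent. The depth was 6 reads per CpG in WT and 20.9 in KI. The same sequence was thus mostly methylated in the testis-specific gene and without a methylated read in its somatic copy.

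Of the 17 somatic H2B genes 9, Hist1h2bj included, had shared CpGs in this window, with identities down to 83.6%, and 5 of the 9 had no methylated read in WT. Hist1h2bh had 0 methylated reads of 273 (WT) and of 450 (KI), which allows up to 1.10% and 0.667% if each count is taken as independent. Its depth was 22.8 reads per CpG in WT and 37.5 in KI. Hist1h2bn, with 98.5% identity, had 0 of 109 and 0 of 183. Hist1h2bf, also identical in 66 of 67 bases, was the highest of the 9 with 13.1% in WT and 15.1% in KI. Reads were kept where they mapped once, and how far reads of near-identical copies were placed at the wrong gene was not tested. The Hist1h2aa stretch was less like its somatic relatives, at 75.2% to 79.3% identity, and averaged 78.3% in WT and 71.9% in KI over 16 cytosines. Only the somatic Hist3h2a was measured there, with 0 of 50 reads methylated in WT and 0 of 31 in KI over 5 CpGs.

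**Figure D1:**
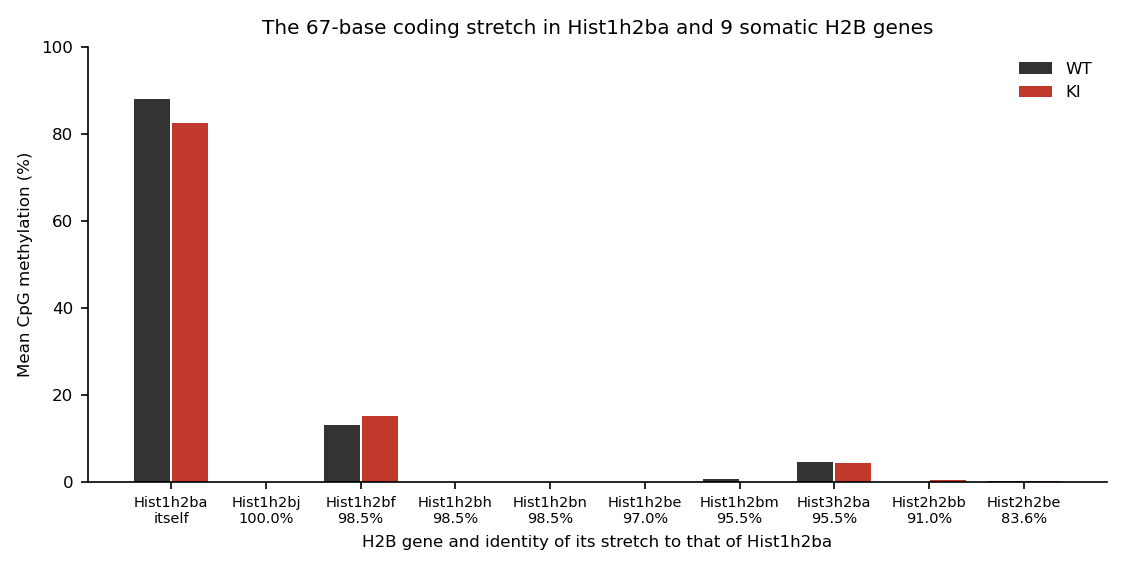
Mean CpG methylation (%) of the 67-base coding stretch in Hist1h2ba and in the 9 somatic H2B genes with shared CpGs there, bars for WT (dark) and KI (red), ordered by identity to Hist1h2ba. Hist1h2ba stands at 88.0% and 82.5%, and no somatic stretch is above 15.1%.

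The Hist1h2ba and Hist1h2aa loci overlap and hold the same 46 shared CpGs, so that they count as 1 set of measurements. They averaged 82.5% (WT) and 78.7% (KI). The change was -3.79 percentage points with a counting interval of -5.46 to -2.12. Of the 46 CpGs, 34 were lower in KI, 11 higher and 1 equal. The strands differed most at MspI sites. At the 4 CpGs inside CCGG measured on both strands, the higher strand of each CpG averaged 87.1% and the lower 4.65% in WT. Which strand was the higher varied between CpGs. Outside CCGG the higher and lower strands, picked in the same way, averaged 93.1% and 88.3%. Some gap follows from the picking itself. Whether the library construction set the low strand was not tested. The 37 CpGs outside CCGG averaged 90.1% (WT) and 85.7% (KI), a difference of -4.38 points, and of 17 such CpGs measured on both strands 13 were lower on both and 1 was higher on both.

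Both genes were lower in KI. With flanks left out, so that each gene has its own CpGs, Hist1h2ba had 84.7% in WT against 82.3% and Hist1h2aa 78.3% against 71.9%, and each passed both tests for loci given further on. In Hist1h2ba, 26 cytosines at 161 to 280 bp from the annotated 5′ end went on average from 84.6% to 79.6%, and 22 of them were lower in KI. In Hist1h2aa, of the 16 cytosines at 96 to 214 bp, 12 were lower and 3 higher. The remaining 4 cytosines, at 84 to 155 bp in Hist1h2ba, were higher in KI, at 85.7% against 100%, but rest on 14 reads each in WT and 5 in KI. With at least 10 reads asked for, they drop out and the change of the pair is -5.52 points. Single cytosines of the pair gave 4 of the 5 largest losses among histone CpGs at a depth of 20 or more in each library. At chr13:24026458 in Hist1h2aa 27 of 35 reads were methylated in WT and 41 of 81 in KI, or 77.1% and 50.6%, with an adjusted p of 0.163 by Fisher's exact test. At chr13:24025759 in Hist1h2ba the counts were 82 of 86 and 80 of 102, or 95.3% and 78.4%, with an adjusted p of 0.0403 by Fisher's exact test, and its partner on the other strand at chr13:24025760 had 98.2% and 82.6%. None of them passed the call for single CpGs, which also asks for a difference above 25 points.

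**Figure D2:**
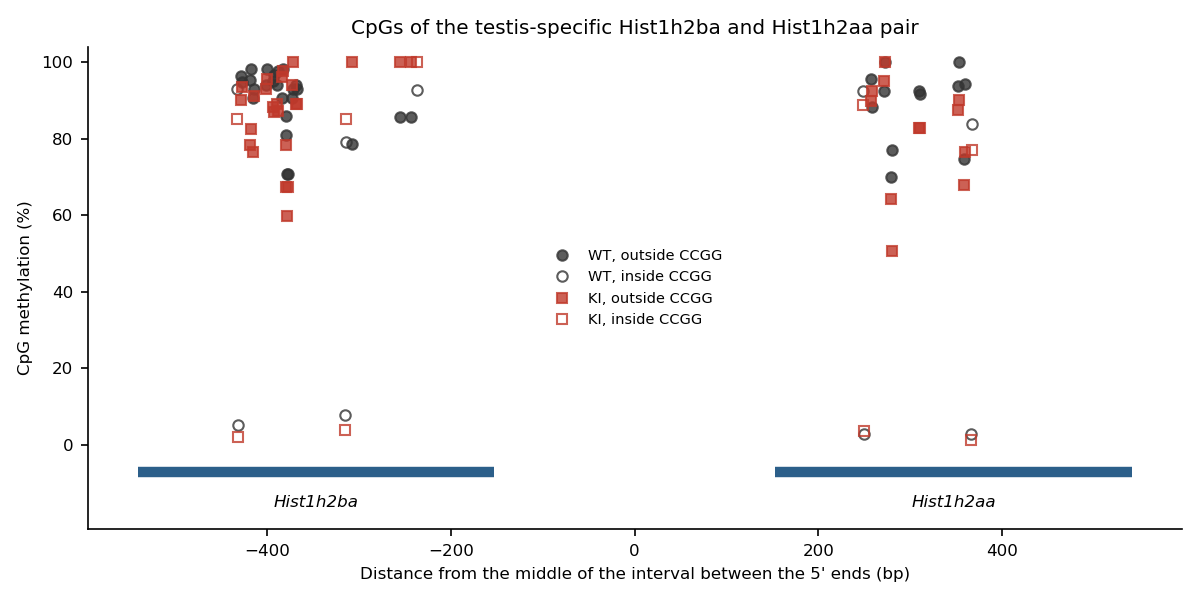
Methylation (%) of each shared CpG of Hist1h2ba and Hist1h2aa against the distance (bp) from the middle of the interval between their 5′ ends, circles for WT and squares for KI, open where the CpG lies inside CCGG. Shared CpGs lie only in the genes, most of them above 60%, and 4 cytosines inside CCGG lie under 10% in both libraries.

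The 305 bp between the 5′ ends of the pair held 8 listed CpGs with 14 reads in WT and 2 in KI in all, and no shared CpG, so that the methylation of the shared promoter region was not measured. The RefSeq promoter of Hist1h2aa, found in mm9 at chr13:24026056-24026355 on the plus strand, is shown beside that of the somatic H4 gene Hist1h4c at chr13:23790278-23790577 on the minus strand, with CpGs in capitals. They were chosen as the promoter between the methylated exons and as that of the unmethylated locus with the most reads.
Hist1h2aa promoter: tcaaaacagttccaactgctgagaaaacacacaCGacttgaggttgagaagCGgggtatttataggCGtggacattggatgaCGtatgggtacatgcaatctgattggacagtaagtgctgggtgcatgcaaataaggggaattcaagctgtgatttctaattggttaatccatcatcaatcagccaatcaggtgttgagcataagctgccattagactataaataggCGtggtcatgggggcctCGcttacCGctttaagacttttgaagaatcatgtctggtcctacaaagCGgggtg
Hist1h4c promoter: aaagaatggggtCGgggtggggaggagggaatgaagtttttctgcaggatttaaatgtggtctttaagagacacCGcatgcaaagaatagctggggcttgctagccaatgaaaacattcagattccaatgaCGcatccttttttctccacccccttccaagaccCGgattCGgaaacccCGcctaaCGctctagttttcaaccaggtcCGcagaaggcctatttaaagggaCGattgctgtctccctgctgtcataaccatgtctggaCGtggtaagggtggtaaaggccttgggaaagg

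The Hist1h2aa window holds 8 CpGs and the Hist1h4c window 10. In the Hist1h4c promoter 13 cytosines were measured, with 0 of 677 reads methylated in WT and 0 of 446 in KI. A RefSeq promoter (GRCm38.p6, 250 bases before the start to 50 after it) was matched for 60 of the 67 genes. CCAAT, in either direction, was present in 85.0% of these 60 and in 37.9% of all 27,025 promoters, and TATAAA in 58.3% and 14.2%. The octamer ATTTGCAT was found in 21.7% against 1.75%, and within the family in 7 of 17 H2A and 6 of 16 H2B promoters but in no H1, H3 or H4 promoter. The Hist1h2aa window holds all 3 of these. Histone promoters held a median of 11 CpGs, against 7 in all. The core of the histone stem-loop, CTTTTCAGA on the sense strand within 200 bases of the gene end, was present at 29 of the 67 genes and at 0.299% of the 4,680 other protein-coding genes on the same chromosomes.

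The linker histone gene Hist1h1t could not be compared. It lies between somatic genes at chr13:23787680-23788588, and no CpG of its locus had 5 reads in both libraries. With all listed reads summed, 26 of 63 were methylated in WT, or 41.3% with an exact (Clopper-Pearson) interval of 29.0% to 54.4%, and 9 of 17 in KI, or 52.9% with 27.8% to 77.0%. The intervals overlap, but the reads come from largely different CpGs, 17 listed in WT and 14 in KI, with 5 in both. A change could not be judged at this depth.

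The somatic histone loci were nearly free of methylation in both libraries. Their 1,336 shared CpGs averaged 3.73% (WT) and 3.99% (KI). The difference was 0.262 points with a counting interval of 0.0838 to 0.439. Over other read minimums, flanks and ways of averaging it ran from 0.0110 points without flanks to 0.808 on summed reads. At 1,096 of these CpGs, or 82.0%, no read was methylated in either library, and 1,257, or 94.1%, were under 10% in WT. Only 36 were above 70%. The shared CpGs of all protein-coding loci, by comparison, averaged 36.8% in WT and 35.1% in KI. In the somatic loci the median CpG had 17 reads, in WT as in KI.

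Leaving out Hist1h2be, whose methylated CpGs lie in an intron, the somatic mean was 1.60% in WT and 1.99% in KI over 1,279 CpGs. Within these, the 893 CpGs inside the genes averaged 0.580% and 0.758%, and the 337 found upstream only averaged 0.267% and 0.396%. The 49 CpGs found downstream only stood apart, at 29.4% in WT and 35.4% in KI. Most of these belong to 3 loci, with 12 CpGs past Hist1h1a at 60.2% in WT, 13 past Hist1h4m at 43.6% and 6 past Hist1h2bk at 23.2%. The 18 downstream CpGs outside these loci averaged 0.759% and 1.56%. Around the annotated 5′ ends, in steps of 250 bp over 1 kb on each side, somatic histone genes stayed between 0.0591% and 1.25% in WT in every step. Other protein-coding genes had 3.13% in the step just upstream and 18.1% in the farthest upstream.

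**Figure D3:**
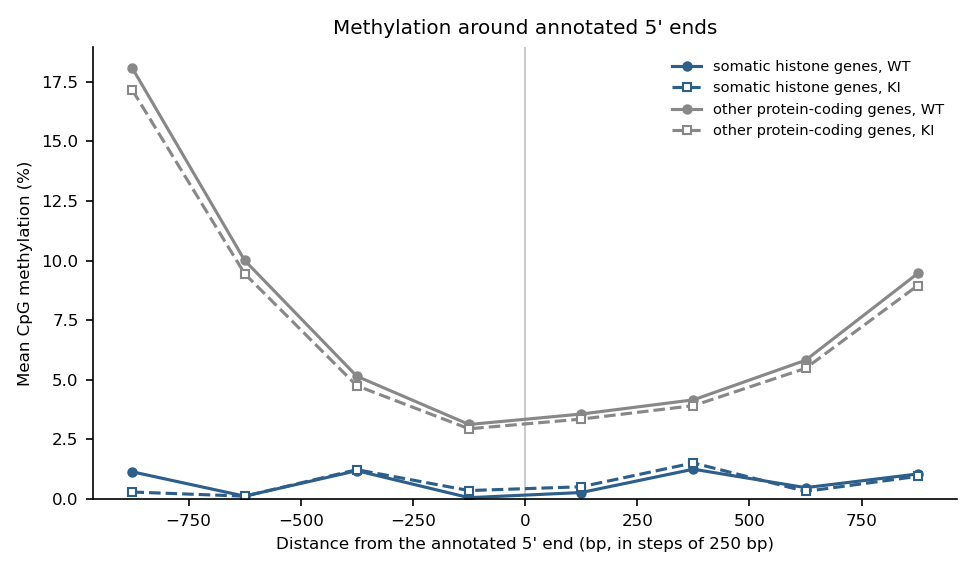
Mean CpG methylation (%) in 250 bp steps against the distance (bp) from the annotated 5′ end, for somatic histone genes (blue) and other protein-coding genes (grey), WT as solid and KI as dashed lines. The histone lines stay under 1.6% over the whole window, and those of other genes reach 18.1% in WT and 17.1% in KI.

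By locus, 52 of the 67 genes had at least 5 shared CpGs and were tested. Neighbouring genes can hold the same CpGs, as 10 pairs did, so that the 52 loci are 42 separate sets of CpGs. Of the 50 somatic loci, 43 were under 1% in WT, where 8.48% of all protein-coding loci were. In 12 of them no read was methylated in either library. The median somatic locus had 0.167% in WT and 0.149% in KI, against 34.1% and 32.5% for the median of all 17,613 protein-coding loci tested. Of the 52 histone loci, 43 changed by less than 1 point.

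**Figure D4:**
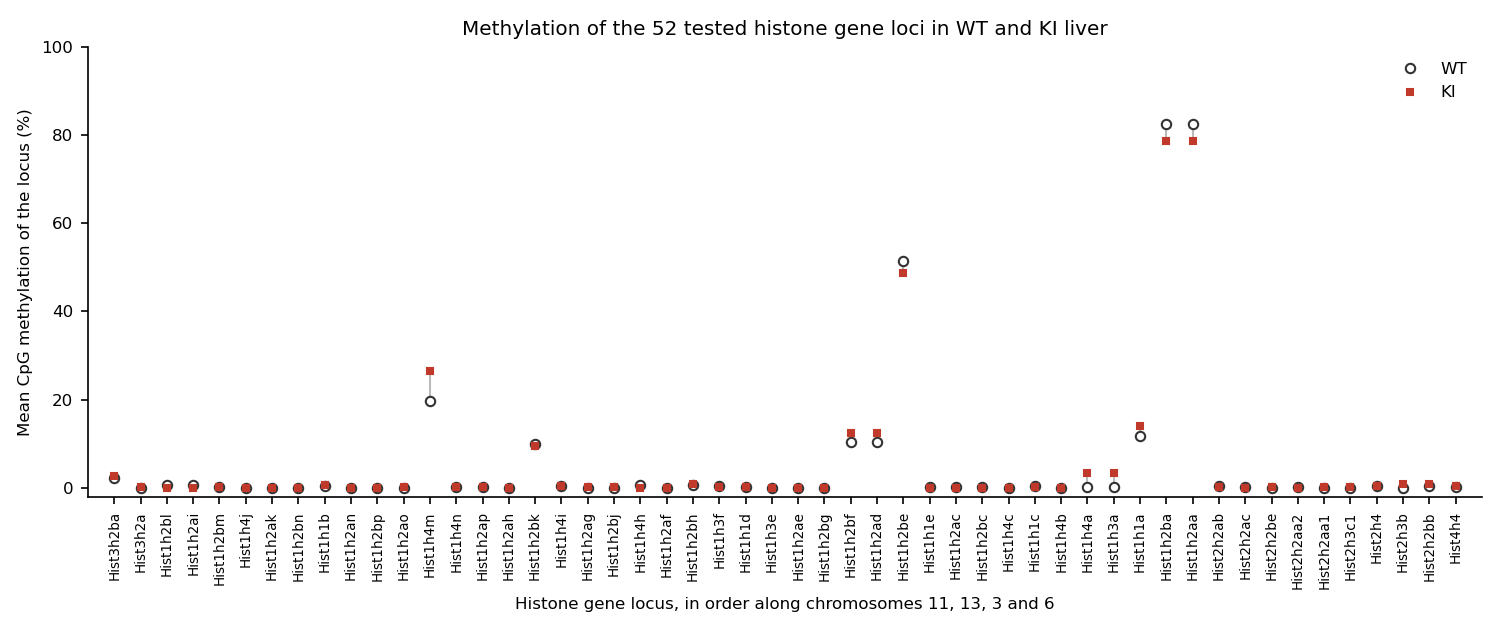
Mean CpG methylation (%) of the 52 tested histone gene loci in the order of the genome, circles for WT and squares for KI, joined by a grey line. All but 11 loci lie under 2% in both libraries; Hist1h2ba and Hist1h2aa stand highest, at 82.5% in WT and 78.7% in KI.

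A locus was called where 2 tests, Cochran-Mantel-Haenszel stratified by CpG and Fisher's exact test on summed reads, both had an adjusted p under 0.05 and pointed the same way. Of all protein-coding loci, 31.8% were called lower in KI and 1.02% higher. Of the 52 histone loci, 3 were called lower (Hist1h2be, Hist1h2ba and Hist1h2aa) and 3 higher (Hist1h4a, Hist1h3a and Hist1h1a), which are 2 sets of CpGs in each direction. The share called lower, 5.77%, was below that of all loci. Among protein-coding loci under 1% in WT, where 43 of the 52 histone loci lie, 1.74% were called lower and 1.74% higher. When the reads of each locus were averaged over its CpGs, no histone locus was called, and of the 17,613 loci 1 was called lower and 1 higher. Averaging gives a locus the depth of a single CpG. Reads of separate fragments or strands then count less than once, which weakens the test. The lack of calls therefore does not show that the 2 libraries are alike.

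Among single CpGs, 1.09% of all shared CpGs were called lower in KI and 0.0474% higher, by Fisher's exact test (adjusted p under 0.05, more than 25 points apart). Of the 1,382 histone CpGs, 1 was called lower and 0 higher. Before adjustment, 9 were lower and 5 higher with p under 0.05 by Fisher's exact test. The like share of all shared CpGs is not given here. The called cytosine, chr13:23694309 on the plus strand, lies inside a CCGG site in the intron of Hist1h2be. There, 35 of 35 reads were methylated in WT and 5 of 12 in KI, with an adjusted p of 0.00123 by Fisher's exact test. The next measured cytosine on that strand, chr13:23694523, had the opposite sign, with 69.7% of 33 WT reads and 83.3% of 12 KI reads methylated.

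Most of the somatic methylation lay in 1 H2B gene, Hist1h2be. Summed over CpGs, it held 4,145 of the 4,769 methylated reads of somatic loci in WT and 4,118 of 4,995 in KI. Hist1h2be, an H2B gene annotated over 37,383 bp, had 51.4% in WT and 48.8% in KI over 57 CpGs, the highest level of any somatic histone locus. Its change was -2.60 points, with an interval of -4.31 to -0.881 and adjusted p-values of 0.00321 (Cochran-Mantel-Haenszel) and 0.00304 (Fisher's exact test). The 42 CpGs in its 34,945 bp intron (chr13:23677840-23712784) averaged 69.7% in WT and 66.1% in KI. The 15 CpGs in its exons and flanks, which lie in the exon with the H2B coding sequence, had no methylated read of 206 in WT and 1 of 326 in KI. The call of this locus is therefore a call on intronic CpGs that lie at least 18,382 bp from the annotated 5′ end, and its histone-coding part belongs to the unmethylated group.

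The other H2B loci were low. Without Hist1h2be the 418 somatic H2B CpGs averaged 1.32% in WT and 1.53% in KI. Hist1h2bf shares its 14 CpGs with the H2A gene Hist1h2ad, and they went from 10.3% to 12.5%, with 10 CpGs higher and 3 lower in KI. All lie inside Hist1h2bf, with at most 25% at a single CpG in WT, and the locus was not called (adjusted p 0.337, Cochran-Mantel-Haenszel). Hist1h2bk had 9.94% in WT and 9.59% in KI, all of it from 6 CpGs downstream at 23.2% and 22.4%. Hist3h2ba, in the small cluster on chromosome 11, had 2.15% and 2.62% over 86 CpGs. In it, chr11:58762686 went from 17 of 74 reads to 4 of 68, or from 23.0% to 5.88%, with an adjusted p of 0.108 by Fisher's exact test. Hist1h2bl, which shares its CpGs with the H2A gene Hist1h2ai, had 0.696% in WT and no methylated read in KI, the largest loss after the called loci. Hist1h2bg, Hist1h2bn and Hist1h2bp had no methylated read in either library.

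The 403 CpGs of the somatic H2A genes averaged 0.501% in WT and 0.533% in KI, and 15 of 16 tested loci were under 1% in WT, Hist1h2ad being the other. None of the 16 was called in either direction. Hist1h2ac, Hist1h2ad, Hist1h2ae, Hist1h2ag, Hist1h2ai, Hist1h2ak and Hist1h2an hold the same shared CpGs as a neighbouring H2B locus, and Hist2h2aa1 the same as Hist2h3c1. Their values are thus not separate measurements of H2A genes. Hist1h2ae, Hist1h2af, Hist1h2ah, Hist1h2ak and Hist1h2an had no methylated read in either library. Hist3h2a, deeply read at 63.5 reads per CpG in WT and 49.8 in KI, had 0.0553% and 0.122% over 71 CpGs.

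Of the H3 genes only 6 of 11 had a shared CpG, and 5 were tested. The 174 CpGs of the family had 0.111% in WT against 0.894% in KI, which differ by 0.783 points with a counting interval of 0.399 to 1.17. Without Hist1h3a the 144 other CpGs had 0.0992% and 0.369%, and the interval of the difference, -0.0304 to 0.570 points, held 0. Hist1h3f was the highest in WT, at 0.397% against 0.184% in KI, and Hist1h3e had no methylated read in either. Hist1h3a, called higher in KI, shares its 30 CpGs with the H4 gene Hist1h4a, and they went from 0.167% to 3.41%. All 30 lie in Hist1h4a or just upstream of it, past the end of Hist1h3a, so that no CpG inside Hist1h3a was compared. The change was 3.25 points, with an interval of 1.55 to 4.95 and an adjusted p of 9.55e-05 (Cochran-Mantel-Haenszel). All of the gain lies on 1 strand. At each of the 15 cytosines of the plus strand exactly 1 of 13 to 15 reads was methylated in KI and none of 22 to 24 in WT. On the minus strand of the same CpGs, 1 read in WT and 0 in KI was methylated. The deposited files do not join CpGs to reads, and whether these counts come from a single molecule was not tested. With at least 20 reads asked for, 11 CpGs remained, all on the minus strand, and the sign turned, at 0.455% in WT and 0 in KI.

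In the H4 genes the 333 CpGs averaged 1.95% in WT and 2.86% in KI, and Hist1h4m held most of it. Its locus had 19.6% in WT and 26.5% in KI, the largest gain of any histone locus at 6.92 points, but it passed only 1 of the tests, with adjusted p-values of 0.0451 (Cochran-Mantel-Haenszel) and 0.190 (Fisher's exact test). The methylated part is 13 CpGs at 1,144 to 1,292 bp from the 5′ end, past the gene, with 43.6% and 59.0% at 10 to 15 reads per CpG in WT and 6 to 9 in KI. The 16 CpGs at and near the gene had 0.116% and 0.152%. Of the 50-base words of this locus, 64.7% occur in another histone locus, as do 64.3% of those of Hist1h4n. Hist1h4c and Hist1h4j had no methylated read in either library, over 31 and 41 CpGs, and Hist4h4 on chromosome 6 had 0.159% and 0.455%.

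The 312 CpGs of the somatic H1 genes averaged 2.62% in WT and 2.97% in KI. Hist1h1a was called higher, from 11.6% to 14.0% over 62 CpGs, a change of 2.32 points with an interval of 1.07 to 3.57 and an adjusted p of 0.00683 (Cochran-Mantel-Haenszel). The call was lost with at least 20 reads asked for and with reads averaged over CpGs, and by the Cochran-Mantel-Haenszel test the adjusted p was 0.0793 without CpGs inside CCGG, 0.0598 with strands summed and 0.199 without flanks. Its methylated CpGs are 12 at 1,125 to 1,242 bp from the 5′ end, past the gene end, with 60.2% in WT and 67.3% in KI. The 50 other CpGs of the locus had no methylated read in WT and 4 in KI. The other H1 genes were under 1% in both libraries, from Hist1h1b at 0.484% and 0.698% to Hist1h1e at 0.196% and 0.

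The low level was common to the clusters of somatic genes. The block chr13:21807632-22135545 held 23 genes, 18 of them with shared CpGs, and the median locus had 0.0877% (WT) and 0.145% (KI), while the mean over 269 CpGs was 2.86% and 3.57%. The block chr13:23622919-23856283 held 29 genes, 21 with shared CpGs, with medians of 0.167% and 0 and a mean of 7.35% and 7.49% over 531 CpGs, Hist1h2be included. The 9 genes of the cluster on chromosome 3 had medians of 0.101% and 0.192%, and averaged 0.321% and 0.40% over 334 CpGs. Between the histone loci of the same blocks the mean was higher: 441 CpGs in the first had 20.3% in WT and 18.1% in KI, and 72 in the second had 66.9% and 65.3%. Together with 1 CpG on chromosome 3, the 514 CpGs between loci were mixed. Their median was 2.63% in WT, with 308 CpGs, or 59.9%, under 10% and 122, or 23.7%, above 70%.

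For 14 genes no CpG was shared, and they were not compared. They are Hist1h1t, the H2A genes Hist1h2ab and Hist1h2al, the H2B genes Hist1h2bb, Hist1h2bq and Hist1h2br, the H3 genes Hist1h3b, Hist1h3d, Hist1h3g, Hist1h3h and Hist1h3i, and the H4 genes Hist1h4d, Hist1h4f and Hist1h4k. They held a median of 7 CCGG sites, against 8 in the 53 with shared CpGs. For Hist1h2bq and Hist1h2br 100% of the 50-base words occur in another histone locus, and both were listed with 0 reads.

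Related genes were read in the same way for comparison. Of 11 replacement histone genes, which are expressed outside S phase, 2 were called lower and 0 higher, against 31.8% and 1.02% of all loci. They are H2afy (macroH2A1), from 63.9% to 62.8%, and H2afy2 (macroH2A2), from 35.6% to 35.1%. The median of the 11 in WT was 11.3%, and H1foo, the oocyte linker histone, had 79.2% and 79.6%. H3f3a and H2afz, which encode H3.3 and H2A.Z, were at 0.0372% and 1.44% in WT. Of the testis chromatin genes 8 were found and 5 tested, and the median locus had 75.1% (WT) and 67.1% (KI). The linker histone genes Hils1, from 75.1% to 67.1%, and H1fnt, from 83.0% to 75.3%, were called lower. The transition protein gene Tnp1 went from 79.6% to 73.0% without a call, and the protamine gene Prm1 from 13.8% to 24.5% at about 8 reads per CpG, also without one. None of the 11 genes for histone transcription and RNA processing, Slbp and Npat among them, was called in either direction by both tests. Before adjustment 3 of the 11 had p under 0.05 by the Cochran-Mantel-Haenszel test, as had 9,145 of the 17,613 protein-coding loci.

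The change of the testis-specific pair was like that of other loci with as much methylation. Of all protein-coding loci, 704 had 75% to 90% in WT, and their median change was -3.20 points, with quartiles of -5.60 and -1.36, which hold the -3.79 points of the pair. Of these 704, 45.6% were called lower.

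**Figure D5:**
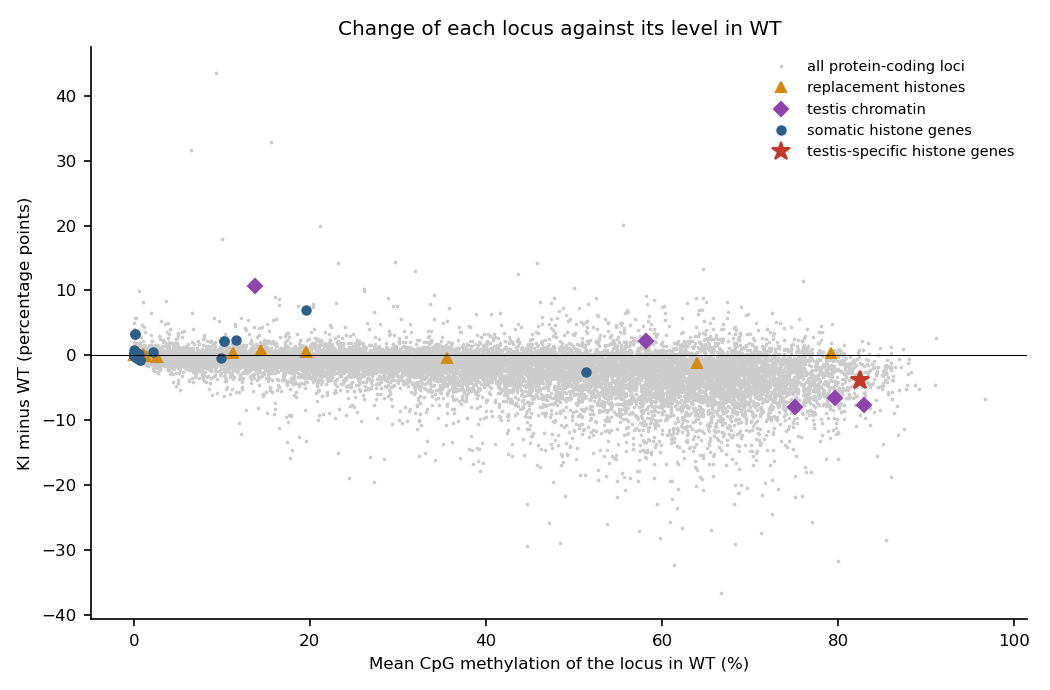
Change of each tested protein-coding locus (KI minus WT, percentage points) against its mean CpG methylation in WT (%), with somatic histone genes in blue, the testis-specific pair as a red star, replacement histones as orange triangles, testis chromatin genes as purple diamonds and all loci in grey. Somatic histone loci gather near 0 on both axes, and the pair at 82.5% lies inside the cloud of loci with a like level.

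As a check of the tissue, 5 of 8 hepatocyte genes had shared CpGs within 1 kb of the 5′ end. In WT they ranged from 2.78% (Tat) to 56.7% (Hnf4a). All 5 were lower in KI, from 0 (Tat) to 45.2% (Hnf4a), over 8 to 18 CpGs each. Apob went from 43.7% to 31.1% and Fgb from 39.6% to 26.0%. Of the genes of blood and Kupffer cells, Cd3e had 65.3% in WT and 48.5% in KI, and Emr1 66.7% and 65.2%. What these differences come from was not tested. Alb, Apoa1 and Ttr had no shared CpG there. The libraries listed 7,231,934 and 6,452,685 CpGs. Shared CpGs had 37 reads in the median in either library, and they averaged 45.6% in WT and 42.6% in KI.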

How the data were processed

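RRBS of liver DNA was deposited as 1 library each for WT and KI. The KI label gives its genotype as knock out, and the sample was taken as KI from its title. Per the submitters' processing notes, reads were mapped to mm9 with Bismark 0.12.20. Trimming and duplicate handling are not given in the sources used here. The authors deposited, for each CpG cytosine, the coverage as a count of reads and the methylation as a percent of them. Methylated reads were recovered as whole numbers at 100% of listed positions.

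Levels are means over shared CpGs (at least 5 reads in both libraries) with equal weight, and intervals are at 95%. Reads of each CpG entered a two-sided Fisher's exact test. Loci with at least 5 shared CpGs entered the Cochran-Mantel-Haenszel test and Fisher's exact test on summed reads. P-values were adjusted by Benjamini-Hochberg over the shared CpGs of the genome or all protein-coding loci. Tests were checked on simulated data in which each CpG was drawn independently. That check does not cover reads spanning several CpGs or PCR copies. Genes came from GENCODE for mm9, promoters from RefSeq (GRCm38.p6), matched by Ensembl ID or synonym. The members and lists were chosen with earlier results of these data known. Genes named are the testis-specific ones, called loci, the highest and lowest locus of each family, the 5 largest losses and gains, loci without shared CpGs and called genes of the other lists, as well as a few shown as examples. Promoters of Hist1h1t and Hist1h2be, without shared CpGs, are not printed. H1f0 and H2afb3 were not found by name. Not every gene of the blood and Kupffer cell list is reported here. Alternatives were other read minimums, flanks and tests, summed strands and CpGs outside CCGG. Tables were handled in Python 3.11.15 with pandas 2.3.3 and numpy 2.4.6, tests run with scipy 1.17.1 and numba 0.67.0, and plots drawn with matplotlib 3.10.9.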

Additional observations from a re-analysis of the deposited data

Results flagged for a closer look

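The testis-specific linker histone gene Hist1h1t had 7 CpGs with at least 5 reads in WT but 0 in KI, so that its methylated reads lie outside the comparisons. Of its listed reads 41.3% were methylated in WT (26 of 63) and 52.9% in KI (9 of 17), above the limit that a count of 0 would allow. Its 17 CpGs listed in WT and 14 in KI had at most 10 and 2 reads each, and 5 CpGs were listed in both.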

How the results depend on the processing

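No paired analysis was possible because each genotype is 1 library. The change of all histone CpGs, 0.127 points, was -0.179 with at least 10 reads, -0.257 with at least 20, -0.165 without flanks and 1.16 on reads summed over all CpGs. That of the somatic CpGs, 0.262, was 0.0602 with at least 10 reads, 0.0671 with strands summed, 0.0110 without flanks and 0.808 on summed reads, and 0.389 without Hist1h2be (chosen after seeing the data). The testis-specific change, -3.79, was -5.52 with at least 10 or 20 reads and -5.90 on summed reads. With 2 kb flanks it was -2.27 over 77 CpGs, at 49.3% (WT) and 47.0% (KI). There the Hist1h2ba and Hist1h2aa loci kept their 46 CpGs and the change of -3.79. The added CpGs lie in the flank of Hist1h1t, which then reaches the somatic Hist1h4c, a gene without a methylated read in either library. The testis-specific change kept its direction under every alternative. The lower histone CpGs, 1, were 0 with at least 20 reads, 0 without CCGG and 2 at a difference above 10 points. Loci higher in KI, 3, were 0 with at least 20 reads and 1 without flanks. With reads averaged over CpGs (chosen after seeing the data), 0 histone loci, 0 replacement histones and 0 testis chromatin genes were called in either direction. Hist1h4a and Hist1h3a turned to -0.455 with at least 20 reads, where the plus-strand CpGs, at 13 to 15 reads in KI, dropped out. Hist1h1a lost its call with at least 20 reads, without CCGG, with strands summed and without flanks, and Hist1h2be with at least 20 reads and with 2 kb flanks. Without flanks the 12 downstream CpGs of Hist1h1a, which lie past the gene end, dropped out. Histone RNA factors, 0 in each direction, gave 1 lower with at least 20 reads, 2 lower by the Cochran-Mantel-Haenszel test alone, and 3 lower and 3 higher by Fisher's exact test alone, which also gave 1 replacement histone higher. The averaged reads weaken the test by construction. Apart from these, the 2 kb flanks of the testis-specific genes and the CpGs named as dropped, the cause was not tested. Somatic loci were read at a median of 17 reads per CpG, at which a count of 0 at a single CpG still allows 17.6%.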
